A study of Arabidopsis thaliana with 12 samples.

Results

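The 10 genes described here encode *Arabidopsis* oxidases that make or inactivate gibberellin, the growth hormone of germination and stem elongation. They were picked by locus identifier, with no threshold on measured values, from the 33602 loci in the count tables, by a choice made with earlier results of these data known. The 4 synthesis genes were *GA20OX1*, *GA20OX2*, *GA3OX1* and *GA3OX2*. The 6 inactivation genes were *GA2OX1*, *GA2OX2*, *GA2OX4*, *GA2OX6*, *GA2OX7* and *GA2OX8*.

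Gibberellin is built by early enzymes of terpene chemistry and then finished by oxidases, of which the GA20OX enzymes supply the immediate precursors and the GA3OX enzymes form the active hormone. GA2OX enzymes hydroxylate the active hormone or its precursors and so remove them. Active gibberellin binds GID1 receptors and leads to destruction of the DELLA repressors, which hold back growth and bind phytochrome-interacting factors (PIFs), the transcription factors that keep seedlings in their dark form until light-activated phytochrome removes them.

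Messenger RNA was measured by 3′-end sequencing in whole seedlings of 4 genotypes in the Columbia-0 background, with 3 libraries each, described in the series as biological replicates. The *pifq* quadruple mutant carries mutations in PIF1, PIF3, PIF4 and PIF5, the *pif145* triple mutant in PIF1, PIF4 and PIF5, the *pif3* mutant in PIF3 alone, and WT in none of them. Stratified seeds of every genotype received 3 h of white light at 21 °C, then 15 min of far-red light, and the seedlings were harvested after 2 days in darkness. Each mutant was compared with WT, and *pifq* also with *pif145* and *pif3*, to ask how the loss of these PIFs singly and together alters transcript levels.

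Total counts ranged from 23907577 to 41247734 per library. *PIF1* reads were at 0.0955 ± 0.0262 CPM in *pifq* and 0.145 ± 0.0189 CPM in *pif145*, against 9.75 ± 0.804 CPM in WT (SD, n = 3). *PIF3* reads were at 0.945 ± 0.461 CPM in *pifq* and 1.14 ± 0.519 CPM in *pif3*, against 61.7 ± 15.9 CPM in WT. *PIF5* reads followed the labels likewise, at 0.0226 ± 0.0214 CPM in *pifq* and 1.26 ± 0.221 CPM in WT, whereas *PIF4* reads, at 2.77 ± 0.202 CPM in *pifq* and 3.29 ± 1.85 CPM in WT, did not tell the mutants from WT. Markers of root, shoot apex and epidermis were detected in each genotype. Summed reads of 9 seed storage genes ranged over 125 to 222 CPM in *pifq*, 124 to 209 CPM in *pif145*, 790 to 1228 CPM in *pif3* and 619 to 1525 CPM in WT. In *pifq*/WT, 4 of the 8 tested fell (*CRA1*, *CRU3*, *OLEO2* and *SESA2*) while 0 rose, beside 3.35% of all genes tested that fell. The 2 shoot apex markers summed to 2.29 to 2.63 CPM in *pifq* and 3.51 to 4.17 CPM in WT. The 3 endosperm markers summed to 11.3 to 13.8 CPM in *pifq*, 11.5 to 15.7 CPM in *pif145* and 8.69 to 9.99 CPM in WT. No member of either list was called in *pifq*/WT. Short of 2-fold only were *STM* (log2 -0.70, adjusted p = 0.0295 by edgeR) and *EXPA2* (log2 0.64, adjusted p = 0.0216 by edgeR). Between *pifq* and WT, *STM* of the shoot apex (means 2.12 and 3.43 CPM) and *EXPA2* of the endosperm (7.44 and 4.78 CPM) did not overlap. *CLV3* of the shoot apex and *EPR1* and *MAN7* of the endosperm overlapped. Of the root markers, *SHR* (26.2 CPM in *pifq* and 33.7 CPM in WT) did not overlap, while *SCR*, *PLT1* and *PLT2* did. The share of all genes tested that separate in this way was not counted. CPM are counts scaled to a common library total after TMM normalization.

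Of the 10 oxidases, 6 passed the filter on low counts and were tested, and *GA3OX2*, *GA2OX1*, *GA2OX4* and *GA2OX7* did not pass. A gene was called changed when the quasi-likelihood test of edgeR gave an adjusted p of at most 0.05 over the 18356 genes tested and a fold change of at least 2. The oxidase called changed was *GA2OX6*, an inactivating enzyme, which fell in *pifq* relative to both WT and *pif3*. None of the tested synthesis genes among the 10 met both thresholds in any of the 5 contrasts.

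**Figure D1:**
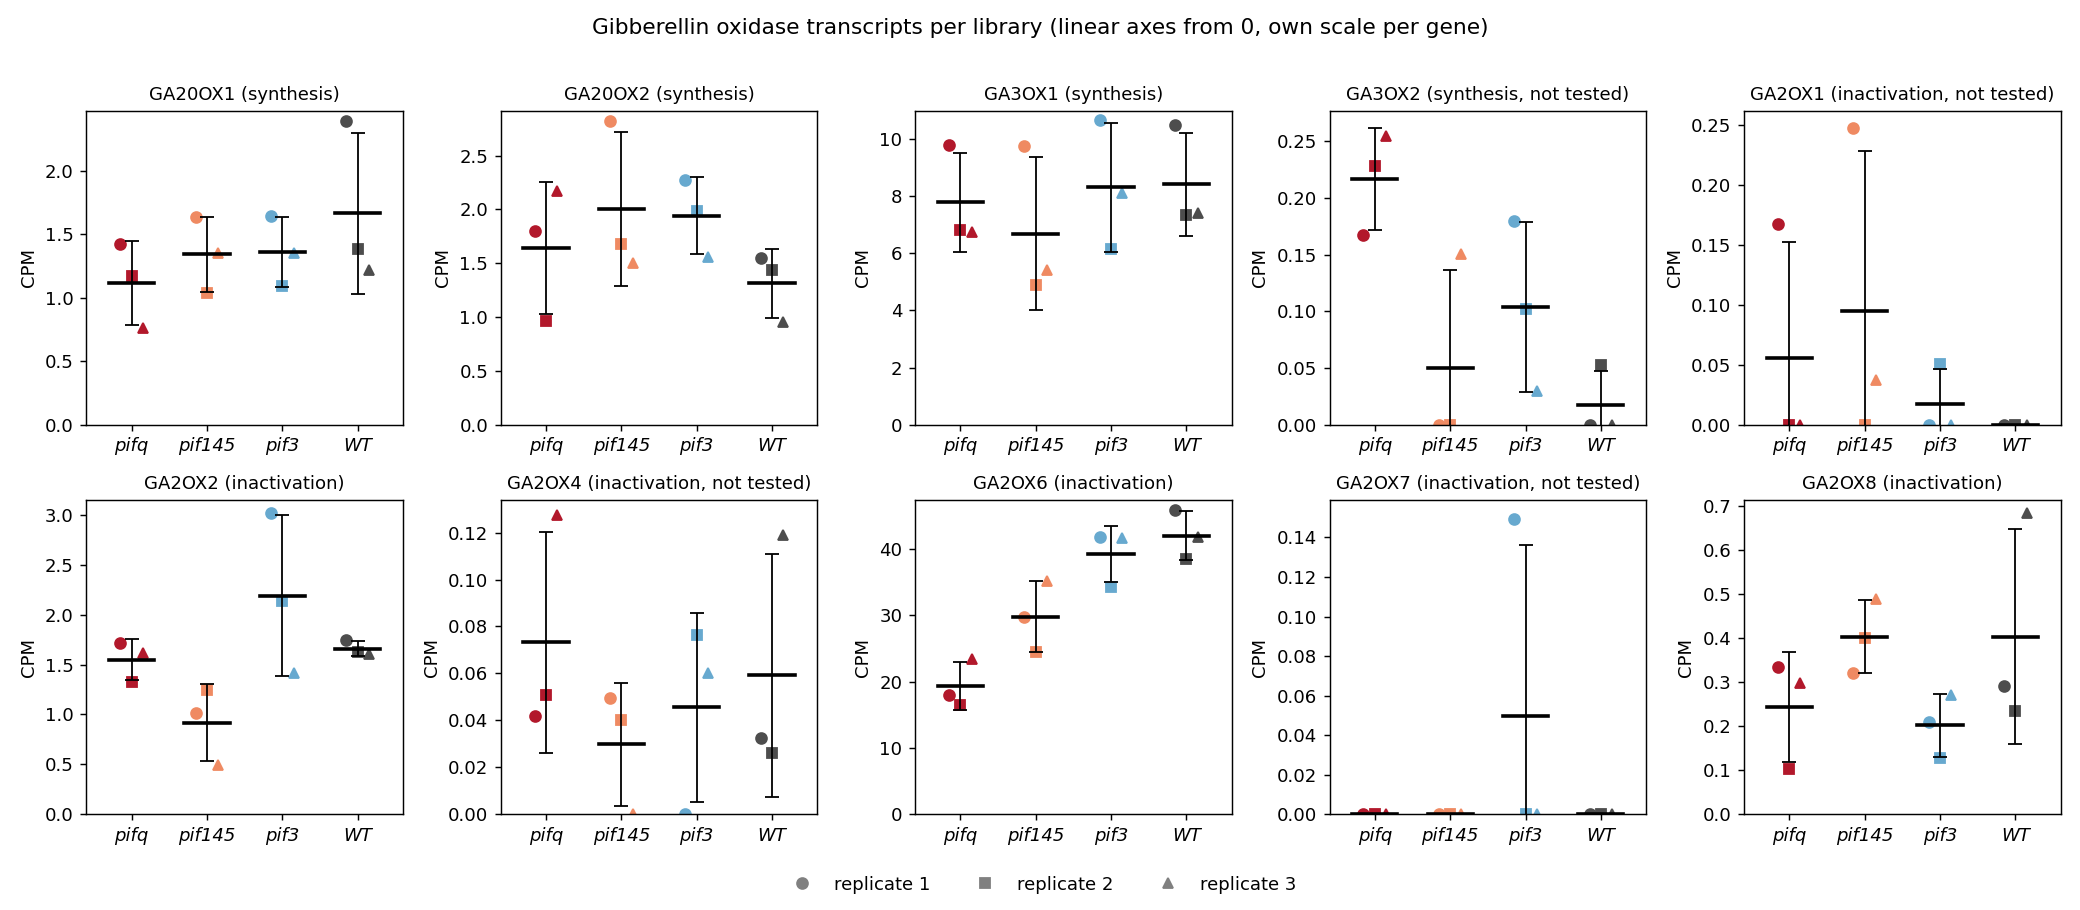
Transcript level (CPM, linear axis from 0, own scale for each gene) of the 10 oxidases in the 12 libraries, with *pifq*, *pif145*, *pif3* and WT from left to right. Symbols mark replicates 1, 2 and 3, and lines and bars give mean ± SD (n = 3). *GA2OX6* lies at 16.4 to 23.4 CPM in *pifq* and 38.5 to 45.9 CPM in WT, whereas *GA3OX1* overlaps between all genotypes and is highest in replicate 1 of each.

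*GA2OX6* (AT1G02400) encodes an enzyme that hydroxylates active gibberellins and their direct precursors, and it was the most abundant of the 10 transcripts. It lies on chromosome 1 at chr1:486800-489651 (TAIR10.1, plus strand), with 2 exons in its longest transcript. Its level in WT stood above 83.5% of the genes tested, whose median in WT was 6.93 CPM. Levels can be set side by side between genes here because the same length, the last 500 bases of each transcript, was counted for each gene.

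The *GA2OX6* level was 18.0, 16.4 and 23.4 CPM in *pifq* replicates 1, 2 and 3, against 45.9, 38.5 and 41.8 CPM in WT. The highest *pifq* library was well below the lowest WT library, and each *pifq* replicate was lower than the WT replicate of the same number, by log2 differences of -1.35, -1.23 and -0.84. The fitted change was log2 -1.12 (SE 0.18, 95% interval -1.51 to -0.74), with an adjusted p = 0.00102 by edgeR. In replicates 2 and 3 alone, which share a sequencing platform, it was log2 -1.02 (adjusted p = 0.0208 by edgeR). In these whole-seedling samples, fewer cells that express a gene and less of its RNA per cell cannot be told apart. The seed storage and shoot apex sums given above were also lower in *pifq* than in WT, and the endosperm sum was higher. Among the shoot apex and endosperm markers, only *STM* and *EXPA2* separated *pifq* from WT without overlap. So did *SHR* among the root markers, while the root sum overlapped. The part of these sums and markers in the *GA2OX6* result was not tested.

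In *pif3*, *GA2OX6* was at 41.7, 34.3 and 41.7 CPM, a range that overlaps WT. The mean was 39.2 ± 4.25 CPM in *pif3* and 42.0 ± 3.70 CPM in WT (SD, n = 3), a log2 change of -0.10 (SE 0.18, 95% interval -0.48 to 0.28). Against *pif3*, *pifq* was lower without overlap, at log2 -1.03 (SE 0.18, 95% interval -1.41 to -0.64, adjusted p = 0.00355 by edgeR). This second call sits at the fold threshold, and it was lost in 6 of the 15 fits that left out a library or a replicate number, in which the log2 change was as small as -0.91.

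In *pif145*, *GA2OX6* was at 29.7, 24.5 and 35.2 CPM, a level between *pifq* and WT that overlapped neither. The change from WT was log2 -0.50 (SE 0.18, 95% interval -0.88 to -0.11) and did not pass, with an adjusted p = 0.164 by edgeR. *pifq* stood below *pif145* at log2 -0.63 (SE 0.18, 95% interval -1.01 to -0.24, adjusted p = 0.168 by edgeR), which did not pass either. The order of the means was therefore 19.3 ± 3.62 CPM in *pifq*, 29.8 ± 5.34 CPM in *pif145*, 39.2 CPM in *pif3* and 42.0 CPM in WT. Of the neighbours in that order, the libraries of *pifq* and *pif145* did not overlap, those of *pif145* and *pif3* overlapped slightly, and those of *pif3* and WT overlapped widely.

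The interaction contrast asks whether the difference between *pifq* and *pif145* departs from the difference between *pif3* and WT. For *GA2OX6* it was log2 -0.53 (SE 0.25, unadjusted p = 0.0547, adjusted p = 1.00 by edgeR), and 0 of the 6 oxidases passed in this fit, against 0.109% of all genes tested. With the replicate number as a block, the *GA2OX6* interaction was log2 -0.52 (SE 0.13) and passed with an adjusted p = 0.0307 by edgeR, as the sole oxidase to do so, where 2.57% of all genes did. The blocked fit also gave *GA2OX6* an adjusted p = 0.000216 for *pif145*/WT at log2 -0.51 and 9.18e-05 for *pifq*/*pif145* at log2 -0.63, both by edgeR and both short of the fold threshold.

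The genes whose log2 CPM followed *GA2OX6* most closely over the 12 libraries were *ACA8*, which encodes a calcium pump of the plasma membrane (Pearson r = 0.974), *GolS5*, which encodes a galactinol synthase (r = 0.961), and *TBL37*, a member of the trichome birefringence-like family (r = 0.961). These are descriptions without a test, over libraries of 4 genotypes and unequal depth, so that r includes the differences between genotypes. *ACA8* averaged 58.8, 72.3, 90.6 and 99.2 CPM in *pifq*, *pif145*, *pif3* and WT, the same order as *GA2OX6* over a narrower range.

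Several PIFs, PIF3 among them, are known to bind the G-box (CACGTG) and the PBE-box (CACATG, or CATGTG on the other strand), and both strands upstream of each oxidase were searched for them. *GA2OX6* had a PBE-box 1042 bases before its annotated start and no G-box within 1500 bases. The stretch around it is shown because *GA2OX6* is the oxidase that fell, and that around the *GA3OX1* matches because this gene, the most abundant for synthesis, did not pass in any contrast. The stretches, with motifs in capitals, run 5′ to 3′ on the strand of the gene and are taken from the RefSeq genome TAIR10.1 at chr1:485698-485823, chr1:5347750-5347875 and chr1:5346347-5346472.
GA2OX6 PBE-box: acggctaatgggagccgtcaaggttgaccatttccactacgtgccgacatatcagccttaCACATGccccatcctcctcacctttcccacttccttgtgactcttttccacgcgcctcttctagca
GA3OX1 G-box: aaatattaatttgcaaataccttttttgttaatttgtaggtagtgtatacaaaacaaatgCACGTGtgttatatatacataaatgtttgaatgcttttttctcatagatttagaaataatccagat
GA3OX1 PBE-box: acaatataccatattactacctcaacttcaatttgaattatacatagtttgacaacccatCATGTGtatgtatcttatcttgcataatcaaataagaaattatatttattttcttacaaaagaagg

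The *GA3OX1* matches lay 1473 bases (G-box) and 70 bases (PBE-box) before the start. Within 1500 bases, 4 of the 10 oxidases held a G-box, as did 19.5% of all genes, and 6 of 10 held a PBE-box, as did 51% of all genes. Within 300 bases, 1 of 10 held a G-box (*GA2OX4*), as did 7.09% of all genes, and 3 of 10 held a PBE-box (*GA20OX2*, *GA3OX1* and *GA2OX7*), as did 13.1% of all genes. *GA20OX1*, *GA2OX1* and *GA2OX8* had neither within 1500 bases. The study also mapped PIF3 binding across the genome, data that were not used here. The gene that fell and the genes that did not pass both include promoters with a match.

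*GA3OX1* (AT1G15550) encodes the oxidase that forms active gibberellin in most growing tissues, and it was the most abundant synthesis transcript. It was at 9.78, 6.81 and 6.75 CPM in *pifq*, against 10.5, 7.35 and 7.41 CPM in WT. The groups overlapped, and the log2 change was -0.11 with a 95% interval of -0.75 to 0.52, so that a change of more than 2-fold in either direction lay outside the interval. It was at 9.75, 4.89 and 5.41 CPM in *pif145* and 10.6, 6.16 and 8.11 CPM in *pif3*. Replicate 1 was the highest library in all 4 genotypes, and replicate 1 alone was sequenced on a GAIIx instrument, the others on a HiSeq2000. With the replicate block, *pif145* was below WT at log2 -0.35 with an adjusted p = 0.0313 by edgeR, short of the fold threshold.

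*GA20OX1* (AT4G25420), which supplies precursors during stem elongation, was at 1.42, 1.17 and 0.765 CPM in *pifq* and 2.39, 1.39 and 1.22 CPM in WT. The groups overlapped, with a log2 change of -0.56 (SE 0.33, 95% interval -1.27 to 0.14, adjusted p = 0.261 by edgeR). Its means in *pif145* and *pif3* were 1.34 and 1.36 CPM, between those of *pifq* and WT.

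*GA20OX2* (AT5G51810), a second precursor-supplying enzyme, was at 1.80, 0.966 and 2.17 CPM in *pifq*, 2.82, 1.68 and 1.50 CPM in *pif145*, 2.27, 1.99 and 1.56 CPM in *pif3*, and 1.55, 1.44 and 0.952 CPM in WT. The *pif3* libraries all stood just above the highest WT library, and the other mutants overlapped WT. The log2 change in *pif3*/WT was 0.56 (SE 0.34, 95% interval -0.18 to 1.30) and did not pass, with an adjusted p = 1.00 by edgeR.

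*GA3OX2* (AT1G80340), which acts with *GA3OX1* in germinating seeds, had too few reads for the filter. It had 4, 9 and 6 reads in *pifq* replicates 1, 2 and 3, against 0, 2 and 0 reads in WT. Each *pifq* library held more reads than the highest WT library, although each value is a handful of reads. Pooled, 19 reads in *pifq* and 2 in WT gave a depth-scaled ratio of 10.1, with a 95% counting interval of 2.44 to 89.5. An exact two-sided permutation test over the libraries gave p = 0.1, the smallest that 3 against 3 allows, and edgeR without the filter gave log2 3.25 with an adjusted p = 0.0851, which did not pass. The gene had 0, 0 and 4 reads in *pif145* and 6, 4 and 1 reads in *pif3*. Between *pifq* and *pif145* the pooled ratio was 4.75 with a 95% counting interval of 1.58 to 19.2. These intervals cover the counting error of pooled reads alone and leave out the spread between libraries. Reads without molecular identifiers are also not independent molecules, so that even the counting error may be larger.

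*GA2OX2* (AT1G30040), an inactivating enzyme whose transcript is known to be lowered by red light in *Arabidopsis* seeds, was at 1.01, 1.24 and 0.488 CPM in *pif145*, against 1.74, 1.62 and 1.61 CPM in WT. All *pif145* libraries were below all WT libraries, at log2 -0.85 (SE 0.34, unadjusted p = 0.0272), but the adjusted p = 0.220 by edgeR did not pass. With the replicate block it was log2 -0.89 with an adjusted p = 0.0175 by edgeR, again short of 2-fold. *GA2OX2* in *pifq*, at 1.71, 1.32 and 1.61 CPM, overlapped WT and was above *pif145* in every library (log2 0.75, SE 0.34, adjusted p = 0.569 by edgeR). In *pif3* it ranged widely, at 3.02, 2.14 and 1.41 CPM.

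*GA2OX8* (AT4G21200), which acts on longer-chain gibberellin precursors, was near the lower end of the tested genes, above 6.06% of them in WT. It was at 0.334, 0.102 and 0.297 CPM in *pifq*, 0.322, 0.401 and 0.488 CPM in *pif145*, 0.209, 0.127 and 0.270 CPM in *pif3*, and 0.291, 0.235 and 0.684 CPM in WT. WT replicate 3 was above the other libraries, and every mutant overlapped WT. The log2 changes were -0.79 in *pifq*/WT and -0.99 in *pif3*/WT, with SE of 0.55 and 0.54.

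The other inactivation genes were at the limit of detection. *GA2OX1* had 4, 0 and 0 reads in *pifq*, 10, 0 and 1 reads in *pif145*, 0, 2 and 0 reads in *pif3* and 0 reads in each WT library, where a count of 0 allows up to 0.0309 CPM over the group (a floor of 3 counts). Most of its reads were in replicate 1 of *pifq* and *pif145*. For *pif145* against WT, 11 against 0 reads had a 95% counting interval of the ratio with a lower bound of 2.67, but 10 of the 11 reads came from 1 library, an exact two-sided permutation test over the libraries gave p = 0.4, and edgeR without the filter gave an unadjusted p = 0.0401 and an adjusted p = 0.322. *GA2OX4*, known from the base of the shoot apex, had 6, 3, 5 and 6 reads summed over the libraries of *pifq*, *pif145*, *pif3* and WT. *GA2OX7*, which like *GA2OX8* acts on longer-chain precursors, had 5 reads in *pif3* replicate 1 and 0 in the other libraries. None of these 3 genes passed in any contrast of the fit without the filter.

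**Figure D2:**
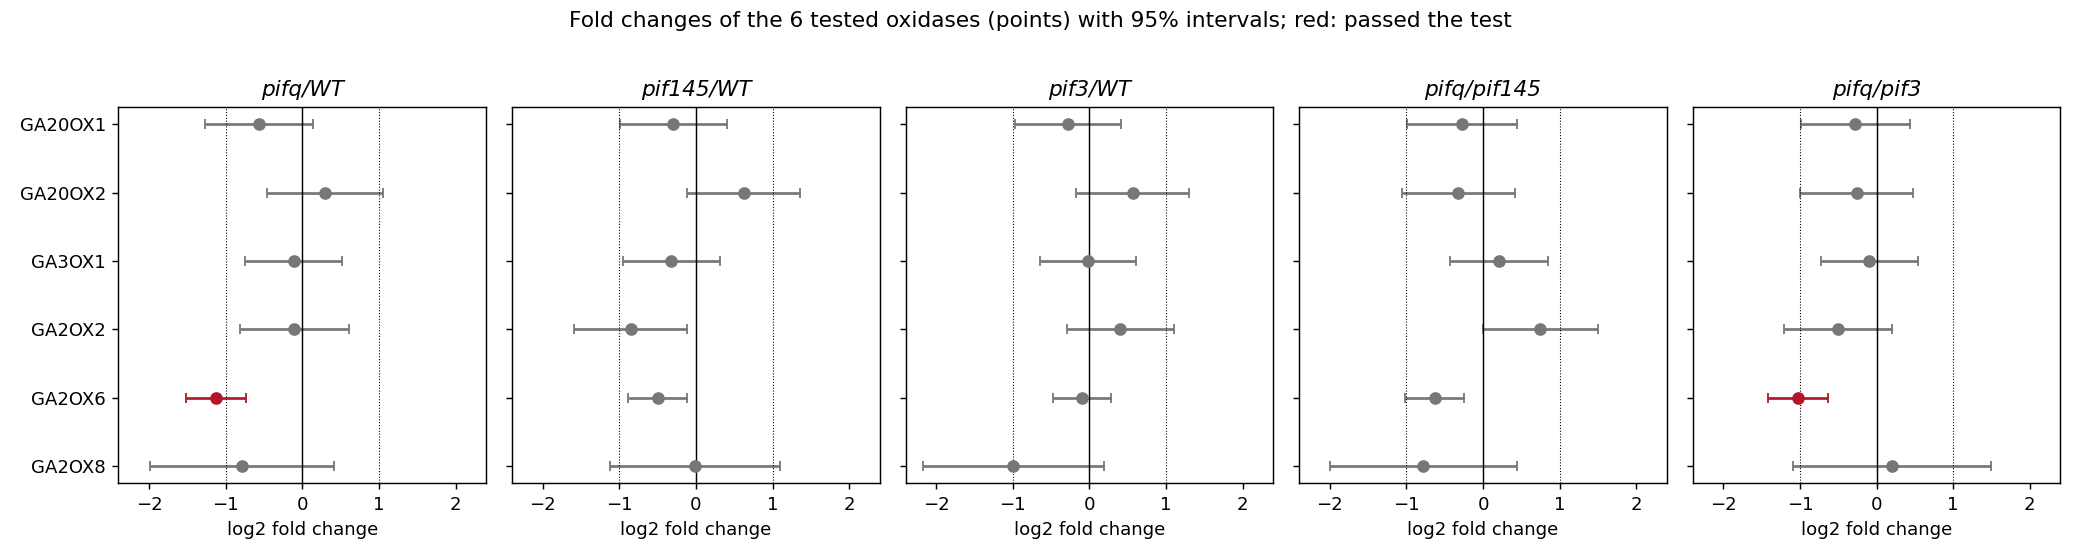
Log2 fold change (x axis) of the 6 tested oxidases in the 5 contrasts, each the first-named genotype over the second, with 95% intervals from the edgeR fit. Dotted lines mark a 2-fold change, and red marks the values that passed both thresholds, *GA2OX6* at -1.12 in *pifq*/WT and -1.03 in *pifq*/*pif3*. The interval of *GA2OX8* is the widest of the 6 in every panel.

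In *pifq*/WT, 1 of the 6 tested oxidases was called and it fell, beside 8.28% of all genes tested called in either direction and 3.35% that fell. In *pifq*/*pif3*, 1 of 6 fell, beside 5.02% called and 2.53% that fell. In *pif145*/WT, 0 of 6 were called, beside 1.71% of all genes, and 2 had an unadjusted p under 0.05. In *pifq*/*pif145*, 0 of 6 were called, beside 0.725%, and 1 had an unadjusted p under 0.05. In *pif3*/WT, 0 of 6 were called, beside 0.0381%, and 0 had an unadjusted p under 0.05. DESeq2 called the same numbers of oxidases in these contrasts. The median log2 change of the 6 was -0.34 in *pifq*/WT, -0.31 in *pif145*/WT and -0.06 in *pif3*/WT, where the medians of all genes tested were -0.03, -0.02 and -0.01.

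The balance among the 10 oxidases was described by dividing the summed reads of the 4 synthesis genes by those of the 6 inactivation genes in each library. It is not the balance of the whole pathway. Outside it lie the synthesis oxidase *GA20OX3*, with means of 1.08 CPM in *pifq* and 3.73 CPM in WT, and the inactivating enzyme *ELA1*, with 3.09 and 10.6 CPM. The ratio was 0.648, 0.512 and 0.391 in *pifq*, against 0.301, 0.254 and 0.217 in WT. Inactivation reads exceeded synthesis reads in all 12 libraries, and every *pifq* library had a higher ratio than every WT library. The ratio was 0.453, 0.291 and 0.233 in *pif145* and 0.327, 0.254 and 0.255 in *pif3*, both overlapping WT. Within each genotype, replicate 1 had the highest ratio.

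Inactivation reads summed to 21.2 ± 3.82 CPM in *pifq*, 31.2 ± 5.01 CPM in *pif145*, 41.8 ± 4.43 CPM in *pif3* and 44.1 ± 3.79 CPM in WT (SD, n = 3). Synthesis reads summed to 10.8 ± 2.12, 10.1 ± 3.60, 11.7 ± 2.76 and 11.4 ± 2.64 CPM in the same order, closer together than the spread between libraries. Without *GA2OX6*, inactivation reads came to 1.92 ± 0.404 CPM in *pifq* and 2.12 ± 0.267 CPM in WT, so that the higher ratio in *pifq* rested on this gene. *GA2OX6* supplied 60.2 ± 6.10% of all oxidase reads in *pifq* and 75.8 ± 2.10% in WT. Without the most abundant gene on each side (*GA3OX1* and *GA2OX6*), the ratio averaged 1.56 in *pifq* and 1.45 in WT, with overlapping libraries. The ratio carries no test, because the members were chosen with results of these data known.

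**Figure D3:**
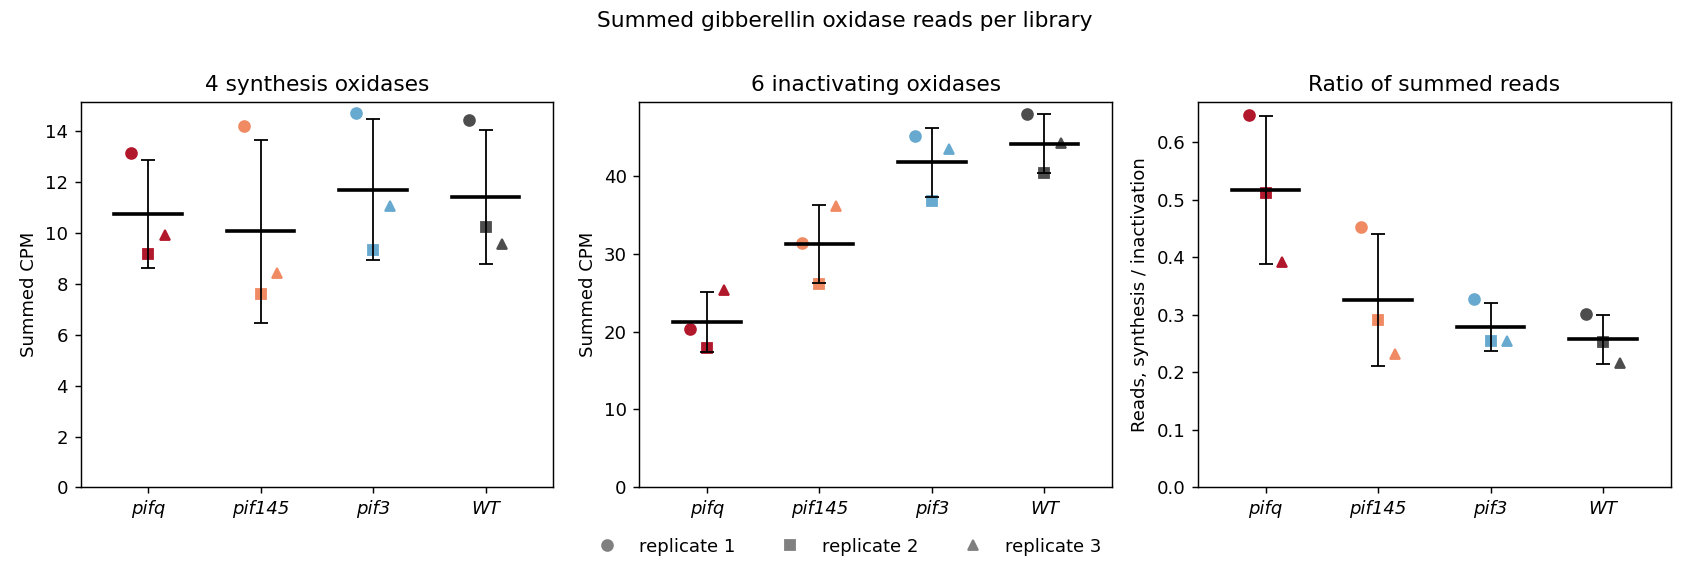
Summed CPM of the 4 synthesis oxidases and of the 6 inactivating oxidases, and the ratio of their summed reads, in each library (linear axes from 0), with *pifq*, *pif145*, *pif3* and WT from left to right. Symbols mark replicates, and lines and bars give mean ± SD (n = 3). The ratio is 0.391 to 0.648 in *pifq* and 0.217 to 0.301 in WT, while the synthesis sums of all genotypes overlap.

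Among 32 further genes of gibberellin synthesis, inactivation, perception and response, 24 were tested. In *pifq*/WT 1 rose and 4 fell, beside 8.28% of all genes called in either direction. In *pif145*/WT 0 rose and 2 fell (1.71% of all genes), in *pif3*/WT 0 changed (0.0381%), in *pifq*/*pif145* 0 rose and 1 fell (0.725%), and in *pifq*/*pif3* 0 rose and 4 fell (5.02%). With the replicate block, 2 rose and 4 fell in *pifq*/WT, where 10.4% of all genes were called, and 0 rose and 2 fell in *pif145*/WT, where 3.55% were. The blocked counts were 0 in *pif3*/WT (0.735% of all genes), 1 up and 1 down in *pifq*/*pif145* (1.88%), and 1 up and 4 down in *pifq*/*pif3* (7.19%). None of the 4 tested genes of early synthesis was called in any of the 5 contrasts. None of the 10 tested receptor, DELLA and DELLA-degradation genes was called either without the block. Short of 2-fold only were the DELLA genes *GAI* and *RGL2*, the latter a gene of seeds. *GAI* was at log2 -0.75 in both *pifq*/WT (adjusted p = 0.00585 by edgeR) and *pifq*/*pif3* (adjusted p = 0.00963 by edgeR). *RGL2* was at log2 -0.74 in *pifq*/*pif3* (adjusted p = 0.00757 by edgeR). With the block, *SNE*, an F-box gene, rose in *pifq*/WT at log2 1.01 (adjusted p = 0.0273 by edgeR), and *RGL2* passed in the interaction at log2 -0.59 (adjusted p = 0.0150 by edgeR).

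*GA20OX3*, a synthesis oxidase of the same family as *GA20OX1* that was not among the 10, fell in both multiple mutants. It was at 1.09, 1.04 and 1.10 CPM in *pifq* and 1.01, 0.681 and 0.338 CPM in *pif145*, against 4.23, 3.11 and 3.84 CPM in WT. Neither mutant overlapped WT, with log2 changes of -1.79 (SE 0.28, adjusted p = 0.000976 by edgeR) in *pifq*/WT and -2.41 (SE 0.29, adjusted p = 0.000973 by edgeR) in *pif145*/WT. In *pif3* it was at 5.26, 6.11 and 5.50 CPM, above every WT library, at log2 0.59 (SE 0.26, adjusted p = 1.00 by edgeR). With the replicate block this change was log2 0.61 with an adjusted p = 0.0440 by edgeR, short of the fold threshold. In *pif145*/WT *GA20OX3* passed and *GA2OX6* did not, but the difference between these changes was not tested. The seed storage reads given above were likewise low in *pifq* and *pif145*, and their part in the *GA20OX3* result was not tested.
GA20OX3 PBE-boxes: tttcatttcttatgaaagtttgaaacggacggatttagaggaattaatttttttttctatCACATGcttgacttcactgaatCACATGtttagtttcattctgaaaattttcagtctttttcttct

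This stretch (chr5:2246105-2246230, TAIR10.1, RefSeq, strand of the gene) is shown because *GA20OX3* is the synthesis oxidase that fell. The PBE-boxes in capitals lie 831 and 809 bases before its start, and another lies at 673 bases.

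*ELA1*, a cytochrome P450 known to inactivate gibberellin by a route other than the GA2OX enzymes, was at 2.26, 3.79 and 3.23 CPM in *pifq*, against 10.3, 10.6 and 10.9 CPM in WT. All *pifq* libraries were lower, at log2 -1.77 (SE 0.25, adjusted p = 0.000437 by edgeR), and *ELA1* also fell in *pifq*/*pif3* (log2 -1.25, SE 0.25, adjusted p = 0.00707 by edgeR). Its means of 3.09, 5.60, 7.42 and 10.6 CPM in *pifq*, *pif145*, *pif3* and WT had the order of *GA2OX6*. Unlike those of *GA2OX6*, its *pif3* libraries, at 5.20, 8.09 and 8.95 CPM, all lay below WT. That change was log2 -0.52 (SE 0.24) and did not pass. With the replicate block it was log2 -0.54 with an adjusted p = 0.0144 by edgeR, short of the fold threshold. *SOM*, a zinc-finger gene that represses light-dependent germination through gibberellin metabolism, fell in *pif145*/WT (log2 -1.03, SE 0.23, adjusted p = 0.0319 by edgeR) and in *pifq*/*pif3* (log2 -1.51, SE 0.23, adjusted p = 0.00163 by edgeR). In *pifq*/WT *SOM* had an adjusted p = 0.0164 by edgeR at log2 -0.91, short of 2-fold.

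Of the 5 genes listed as gibberellin-responsive, *GASA14* fell in *pifq*/WT (log2 -1.25, SE 0.19, adjusted p = 0.000684 by edgeR) and *pifq*/*pif145* (log2 -1.03, SE 0.19, adjusted p = 0.0194 by edgeR). *EXPA8*, a cell wall-loosening expansin, fell in *pifq*/WT (log2 -1.04, SE 0.18, adjusted p = 0.00191 by edgeR) and *pifq*/*pif3* (log2 -1.02, SE 0.18, adjusted p = 0.00404 by edgeR). *GASA6*, linked to cell elongation at germination, rose in *pifq*, at 72.7, 25.9 and 39.9 CPM against 14.7, 4.81 and 6.22 CPM in WT. The groups did not overlap, replicate 1 was the highest in each, and the log2 change was 2.43 (SE 0.68, adjusted p = 0.0258 by edgeR). With the block *GASA6* also passed in the interaction (log2 2.09, adjusted p = 3.90e-05 by edgeR). In *pifq*/WT, *GASA1* (log2 -0.55, adjusted p = 0.0545 by edgeR) and *GASA4* (log2 -0.26, adjusted p = 0.750 by edgeR) did not pass. Thus 1 of the 5 rose and 2 fell, beside 8.28% of all genes called in either direction and 3.35% that fell.

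**Figure D4:**
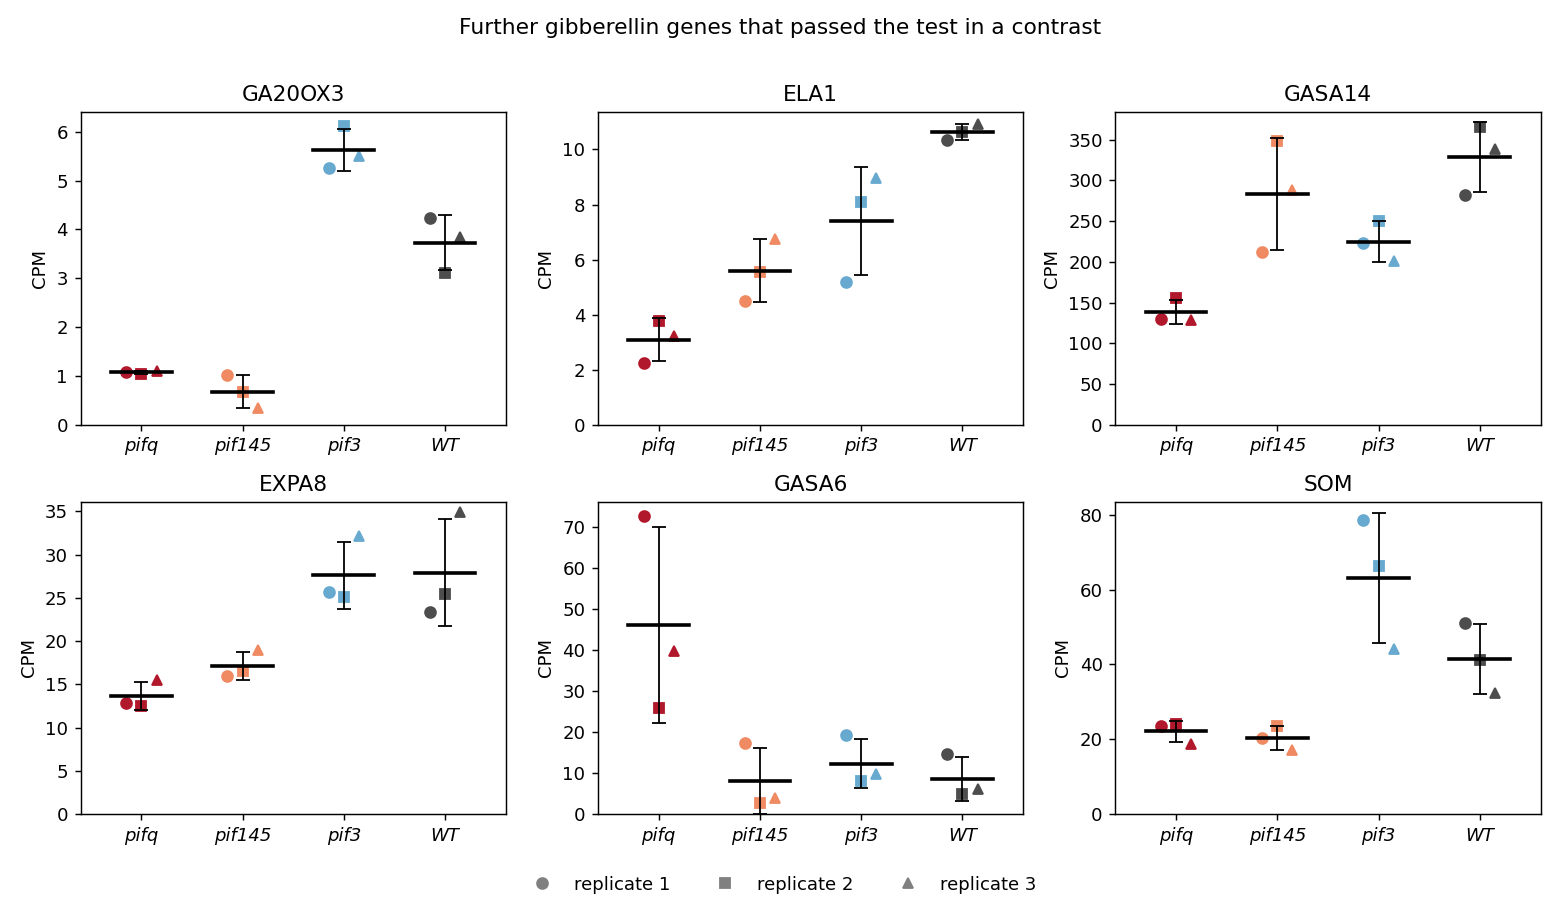
Transcript level (CPM, linear axis from 0) in the 12 libraries of the 6 further gibberellin genes that passed the test in a contrast, with *pifq*, *pif145*, *pif3* and WT from left to right. Symbols mark replicates, and lines and bars give mean ± SD (n = 3). *GA20OX3* is low in both *pifq* and *pif145*, *ELA1* averages 3.09 CPM in *pifq* and 10.6 CPM in WT, and *GASA6* averages 46.1 CPM in *pifq* and 8.59 CPM in WT.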

How the data were processed

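The deposited tables hold whole-number read counts per locus, 1 table per genotype. Per the study's methods, the authors sequenced replicate 1 on a GAIIx and replicates 2 and 3 on a HiSeq2000, aligned reads of 36 bases to representative transcripts with Bowtie, allowing 0 mismatches, and counted those unique to the last 500 bases on the coding strand. The submitters' processing notes name Bowtie 0.12.7, CASAVA 1.7.0 and TAIR10, while the methods name TAIR9. Only reads unique to a locus were counted, and in TAIR10.1 each of the 465 possible reads in the counted end of every oxidase was unique to it. No oxidase overlapped another annotated gene.

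Groups and replicate numbers came from the labels. Counts were scaled by TMM, filtered by edgeR's expression filter and tested in 1 quasi-likelihood fit over the 12 libraries with genotype as its term (edgeR 4.0.16, limma 3.58.1, R 4.3.3), with Benjamini-Hochberg adjustment over 18356 genes. The interaction was called on the adjusted p alone. SE and intervals are on the log2 scale. The procedure was also run on simulated counts drawn independently for each library. These held no differences between replicate numbers, so the simulation does not cover that feature of the data. Alternatives were the size factors of DESeq2, no scaling factors, no filter, DESeq2 1.42.0, the replicate number as a block, the platform as a term, only the libraries compared, and leaving out each library or replicate number.

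Deviations from genotype means correlated at 0.70 to 0.85 in the 18 pairs of libraries sharing a replicate number, and at most at -0.03 in other pairs, so the numbers pair the libraries. This pairing comes from the data, since the labels do not say what a number marks. Replicates were not copies of 1 library, since the chi-square divided by its degrees of freedom was 37.5 or more for each pair within a genotype. P-values measure the spread between these libraries. In the main fit this spread includes the differences between replicate numbers, which the block takes out. For *GA2OX6* in *pifq*/WT the SE was 0.18 in the main fit and 0.092 with the block.

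The 10 oxidases and all gene lists were chosen with earlier results of these data known. Named genes were the 10 oxidases, the called members of each list, and the 3 genes of at least 2 CPM most correlated with each called oxidase. *SNE*, *GAI*, *RGL2*, *GASA1*, *GASA4*, marker and *PIF* genes were added to these. Sequences and coordinates are from RefSeq TAIR10.1, as the deposited tables give no positions.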

Additional observations from a re-analysis of the deposited data

How the results depend on the processing

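Across the 7 settings other than leaving out libraries, 241 of 243 oxidase values kept their direction and their call. Outside the interaction a call needs both thresholds, so a value could cross 1 of them and keep its call. The replicate block did this to the adjusted p of *GA2OX6* in *pif145*/WT and *pifq*/*pif145*, and of *GA3OX1* and *GA2OX2* in *pif145*/WT. With the replicate block the interaction counted 1 oxidase, *GA2OX6*, in place of 0, and *GA2OX8* in *pif145*/WT was at log2 0.025 in place of -0.01. The block changed no other call of an oxidase. Library totals without scaling factors moved the median log2 change of all genes in *pifq*/WT to -0.20, relative to which *GA2OX6* was at -1.11. When libraries were left out in 15 ways, the number of oxidases changed in *pifq*/WT was 1 each time, with *GA2OX6* at log2 -1.29 to -1.01, and that in *pifq*/*pif3* was 0 to 1. It was 0 without replicate 1 (log2 -0.94), without replicate 2 (log2 -0.999, adjusted p = 0.0579 by edgeR), without *pif3* replicate 1 (log2 -0.98) or 3 (log2 -0.98), and without *pifq* replicate 1 (log2 -0.97) or 2 (log2 -0.91). Changes of sign in these 15 fits came to 34 values, none of them called.

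The ratio of synthesis to inactivation without the most abundant gene on each side was 1.56 in *pifq*, 2.44 in *pif145*, 1.41 in *pif3* and 1.45 in WT. The difference of median log2 CPM was 0.11, 1.18, -0.12 and -0.039 in the same order, and by neither measure did *pifq* stand above *pif145*. Depth limits *GA3OX2*, *GA2OX1*, *GA2OX4* and *GA2OX7*, which had few reads or 0.

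Over the fits without a library, *GA20OX1* ranged over log2 -0.33 to 0.39 in the interaction, -0.47 to 0.052 in *pif145*/WT and -0.46 to 0.061 in *pif3*/WT. *GA20OX2* ranged over -0.74 to 0.021 in *pifq*/*pif145*, -0.65 to 0.058 in *pifq*/*pif3* and -0.14 to 0.68 in *pifq*/WT. *GA2OX2* ranged over -0.19 to 0.71 in the interaction and -0.17 to 0.018 in *pifq*/WT. *GA2OX8* ranged over -0.40 to 0.69 in the interaction, -0.29 to 0.60 in *pif145*/WT and -0.11 to 0.66 in *pifq*/*pif3*. *GA3OX1* ranged over -0.24 to 0.17 in *pif3*/WT, -0.28 to 0.12 in *pifq*/*pif3* and -0.30 to 0.072 in *pifq*/WT.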
